A study of Mus musculus with 6 samples.

Results

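The genes described here encode the enzymes, carriers and regulators of fatty acid oxidation, together with a ketone body enzyme and peroxisomal proteins. A gene was included when its symbol stood in a list of 37 chosen symbols and at least 1 array probe set carried that symbol alone. That gave 35 of 18193 measured genes, of which 18 act in mitochondria, 9 in peroxisomes, 3 in both and 5 in the cytosol or as activating enzymes or regulators. Acsl1 and Cyp4a10 were not analysed here. Each gene is shown by its brightest probe set over all arrays.

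The study hybridised RNA of sorted small intestinal stem cells to Affymetrix arrays, with 1 array per mouse. All 6 mice carried the Lgr5-EGFP-IRES-creERT2 allele, which puts a green fluorescent protein and a drug-inducible Cre under control of the stem cell gene Lgr5, and cells with high fluorescence were collected. Replicates 1 to 3 of the vehicle group received DMSO, and replicates 1 to 3 of the other group received DBZ, an inhibitor of gamma-secretase, the protease that activates Notch receptors. The titles give the groups, while another label names DMSO for all 6 arrays. Cells were taken at 24 h, and the comparison asks which genes respond to this inhibitor in the intestine. It does not single out NOTCH1 among the Notch receptors. The labels give no age or sex, and the dose is not used because its unit appears to lack a prefix.

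Mitochondria burn fatty acids in a cycle. Long chains are joined to coenzyme A, passed through the inner membrane as carnitine esters and shortened step by step by a dehydrogenase, a hydratase, a second dehydrogenase and a thiolase. Peroxisomes run a related cycle on very long and branched chains and hand shortened chains on as carnitine esters or free acids. The nuclear receptor PPARalpha, with the coactivator PGC-1alpha, switches on many genes of both routes, and in the gut lipid oxidation has been tied to stem cell function.

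Array medians lay between 44.9 and 46.3 intensity units. Lgr5 itself was measured in all arrays at 204 to 271, and the epithelial genes Epcam, Cdh1 and Krt8 had sums between 46631 and 49412 in the vehicle group and between 45708 and 48753 in the DBZ group. Actin probe sets at the 3' and 5' ends of the transcript, whose ratio goes up as RNA degrades, gave 1.61 to 2.22 in the vehicle group, with replicate 1 highest, against 1.51 to 1.57 in the DBZ group.

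Of the 35 genes 6 fell after DBZ and 0 rose (limma, Benjamini-Hochberg adjusted p under 0.05 over all genes), where 1.52% of all genes were called lower and 3.82% higher. The 6 were Slc25a20, Acads, Eci1 and Acot2 of mitochondria, Eci2 of both compartments and Acot1 of the cytosol. At an unadjusted p under 0.05 there were 18 lower and 0 higher, against 11.3% and 15.1% of all genes. Differences are given as DBZ minus vehicle of log2(intensity + 16), a scale that understates changes of dim genes. On it 31 of the 35 lay below 0 and the median was -0.60, against -0.02 over all genes, 54.6% of which were below 0. All DBZ arrays lay below all vehicle arrays for 15 of the 35, and no gene had them all above. Over all genes the share with DBZ wholly below was 15.8%.

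The count of calls depended on single arrays. Without vehicle replicate 1, 2 or 3, 0 of the 35 passed (limma), while 24, 14 and 13 of them were lower at an unadjusted p under 0.05. The shares of all genes at that unadjusted p were not computed for these fits, so the 24, 14 and 13 have no background beside them. Without DBZ replicate 1, 2 and 3, 13, 1 and 2 passed, among them Acot2 each time and Slc25a20 without replicate 1 or 3. Over all 18193 genes 7, 3 and 4 were called lower without vehicle replicate 1, 2 and 3. Without DBZ replicate 1, 2 and 3 it was 727, 45 and 73. In those 6 fits the adjusted p of the 6 genes ran from 0.013 to 0.14 (limma), the median of the 35 from -0.66 to -0.47, and the number of all genes called from 19 to 2032. Scaling moved the split of all calls but not these: 695 genes were higher and 277 lower with the values as deposited, 581 and 384 after quantile normalization and 536 and 390 after centring on medians, and the same 6 of the 35 passed each time.

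**Figure D1:**
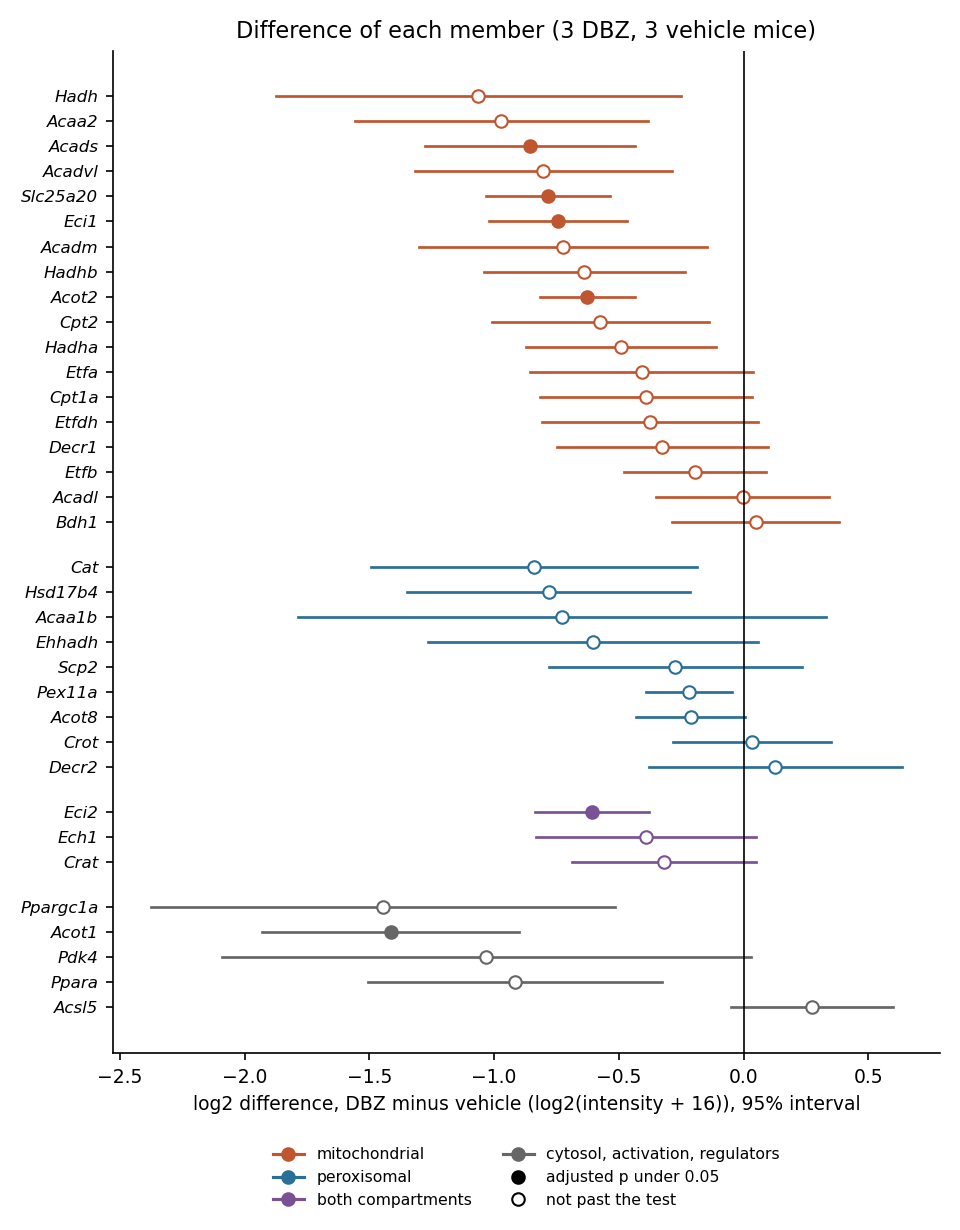
Each row is a gene and each point its difference, DBZ minus vehicle, in log2(intensity + 16) with the 95% interval from limma, for 3 DBZ and 3 vehicle mice. Filled points passed the test: 4 mitochondrial genes, Eci2 of both compartments and Acot1 of the cytosol, while all 9 peroxisomal genes are open.

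The carnitine shuttle carries long chains into mitochondria. Slc25a20, the carrier that swaps acylcarnitine for carnitine across the inner membrane, read 2932, 2330 and 2720 in vehicle replicates 1 to 3 and 1526, 1435 and 1635 in DBZ replicates 1 to 3. All DBZ values were below all vehicle values. It fell by 0.79 on the log2 scale, with an SE of 0.10 (limma, adjusted p = 0.025), which is 42.0% lower. Its other probe set stood at -0.55, also with the groups apart.

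The enzymes on either side of the carrier did not pass the test. Cpt1a, which forms the carnitine ester at the outer membrane, read 973, 1457 and 1451 in vehicle and 1081, 881 and 947 in DBZ arrays, so the groups overlapped at vehicle replicate 1. Its difference was -0.39 ± 0.17 (SE; limma, adjusted p = 0.22). Its other 2 probe sets, at -0.68 and -0.50, had the groups apart, and the mean of all of them gave -0.52 (limma, adjusted p = 0.063). Cpt2, which turns the ester back into acyl coenzyme A in the matrix, was at -0.57 ± 0.18 (limma, adjusted p = 0.11), with DBZ below vehicle in every array for both of its probe sets.

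Acyl coenzyme A dehydrogenases open each round, each for chains of its own length, and 1 of 4 passed. Acads, for short chains, read 744, 940 and 841 in vehicle and 574, 454 and 363 in DBZ arrays. It fell by 0.86 with an SE of 0.17 (limma, adjusted p = 0.049), and the groups did not overlap. It no longer passed with a pseudocount of 64 or the mean of probe sets (limma, adjusted p = 0.071 and 0.053). Acadvl, for very long chains, was at -0.80 ± 0.21 and Acadm, for medium chains, at -0.72 ± 0.24 (limma, adjusted p = 0.079 and 0.12).

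Acadl is the long-chain enzyme. It read 1735, 2500 and 2227 in vehicle and 1962, 2149 and 2279 in DBZ arrays, a difference of -0.0027 with a 95% interval of -0.35 to 0.34. The groups overlapped fully, and the interval leaves room for changes in either direction. The difference between Acadl and the other dehydrogenases was not tested.

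Of the 18 mitochondrial genes Hadh and Acaa2, of the later steps, had the lowest differences. Hadh, the dehydrogenase of short and medium chains, read 15094, 13906 and 12917 in vehicle and 10279, 7335 and 3916 in DBZ arrays. Its groups were apart in all 3 probe sets, at -1.06, -0.99 and -0.48, but it did not pass (SE 0.33; limma, adjusted p = 0.11), and its DBZ values were spread widely. Without DBZ replicate 3 its difference was -0.68, and without DBZ replicate 1 it was -1.38 and passed (limma, adjusted p = 0.035). Acaa2, the mitochondrial thiolase that releases acetyl coenzyme A, was at -0.97 ± 0.24 (limma, adjusted p = 0.071). It read 1525, 2780 and 1967 in vehicle and 1233, 1043 and 840 in DBZ arrays, which did not overlap.

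Hadha and Hadhb encode the alpha and beta subunits of the trifunctional protein, which carries out the last steps on long chains. Hadhb read 2378, 3399 and 3354 against 2212, 1736 and 1856, a difference of -0.64 ± 0.17 (limma, adjusted p = 0.077) with groups apart in all 3 probe sets. Hadha read 752, 1031 and 981 against 755, 635 and 558, a difference of -0.49 ± 0.16 (limma, adjusted p = 0.12), and overlapped only where DBZ replicate 1 exceeded vehicle replicate 1. In the RefSeq annotation of GRCm38.p6 this pair lies head to head, with 272 bases between the starts. Promoters are shown here for the carrier, for this shared region, for Acadm and for the thioesterases Acot1 and Acot2, as the 250 bases before the annotated start, 5′ to 3′ on the gene's strand. Capitals mark the hexamer AGGTCA, to which PPARalpha and other nuclear receptors bind, on either strand.
Slc25a20 (chr9:108661886-108662135, + strand): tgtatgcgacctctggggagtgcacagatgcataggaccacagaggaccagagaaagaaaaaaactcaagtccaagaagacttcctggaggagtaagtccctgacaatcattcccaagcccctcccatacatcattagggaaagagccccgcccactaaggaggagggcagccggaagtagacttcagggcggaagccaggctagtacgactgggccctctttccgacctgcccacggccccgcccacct
Hadhb (chr5:30155003-30155252, + strand; the start of Hadha lies beyond its first base): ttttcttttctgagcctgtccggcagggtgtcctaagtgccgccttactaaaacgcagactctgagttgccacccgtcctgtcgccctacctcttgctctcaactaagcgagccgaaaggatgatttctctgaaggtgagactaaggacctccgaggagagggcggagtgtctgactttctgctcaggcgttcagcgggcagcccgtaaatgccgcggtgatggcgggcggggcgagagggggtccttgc
Acadm (chr3:153944644-153944893, - strand): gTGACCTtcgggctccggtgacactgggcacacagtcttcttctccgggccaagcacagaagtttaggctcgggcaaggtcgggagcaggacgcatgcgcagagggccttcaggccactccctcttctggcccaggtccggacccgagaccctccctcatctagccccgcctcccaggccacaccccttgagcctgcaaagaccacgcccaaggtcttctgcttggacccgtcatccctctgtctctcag
Acot1 (chr12:84009252-84009501, + strand): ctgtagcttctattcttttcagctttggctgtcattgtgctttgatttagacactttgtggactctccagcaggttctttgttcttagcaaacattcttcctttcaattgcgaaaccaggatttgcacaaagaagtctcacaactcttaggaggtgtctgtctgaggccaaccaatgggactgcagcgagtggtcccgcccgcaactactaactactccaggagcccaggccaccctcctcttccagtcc
Acot2 (chr12:83987611-83987860, + strand): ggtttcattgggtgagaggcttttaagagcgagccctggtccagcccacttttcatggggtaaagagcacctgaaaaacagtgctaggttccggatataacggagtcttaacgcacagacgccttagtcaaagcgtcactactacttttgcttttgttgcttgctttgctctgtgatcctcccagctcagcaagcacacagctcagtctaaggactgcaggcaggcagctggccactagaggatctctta

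Of the sequences printed, that of Acadm alone holds the hexamer, at its far end from the start. Promoter windows reaching from 250 bases before to 50 after a start were found for 31 of the 35 genes. AGGTCA on either strand occurred in 5 of their 32 windows, or 15.6%, against 16.3% of 32851 windows of all genes. The 6 windows of the genes that fell held 0. The direct repeat of this hexamer with 1 base between the copies, searched on both strands, occurred in 0 of the 32 windows and in 13 of all windows. Every direct repeat also holds the hexamer, so the counts overlap. A missing match says only that these letters are not in the window.

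Auxiliary enzymes let unsaturated chains enter the cycle. Eci1, the mitochondrial enoyl isomerase, read 1105, 1290 and 1120 in vehicle and 796, 678 and 613 in DBZ arrays, and fell by 0.74 with an SE of 0.11 (limma, adjusted p = 0.031). Eci2, an isomerase found in both mitochondria and peroxisomes, read 1031, 1260 and 1096 against 786, 715 and 698 and fell by 0.61 with an SE of 0.09 (limma, adjusted p = 0.031). Both isomerases had every DBZ array below every vehicle array. Decr1, the mitochondrial dienoyl reductase, was at -0.33 ± 0.17 with overlapping groups, and Ech1, an isomerase of both compartments, at -0.39 ± 0.18. Crat, which moves short chains between carnitine and coenzyme A in both compartments, was at -0.32 ± 0.15, and its 3 probe sets differed in sign.

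Electron transfer from the dehydrogenases to the respiratory chain runs through a flavoprotein and its oxidoreductase. Its genes Etfa, Etfb and Etfdh were at -0.41, -0.19 and -0.37, and 0 of the 3 passed (limma, adjusted p = 0.22 to 0.35; 0 with an unadjusted p under 0.05). Etfa read 2505, 3594 and 3395 in vehicle and 2853, 2303 and 1984 in DBZ arrays. All 3 genes had overlapping groups, with vehicle replicate 1 below DBZ replicate 1 each time.

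Bdh1 makes and uses the ketone body beta-hydroxybutyrate. It read 1103, 1356 and 1290 in vehicle and 1450, 1374 and 1072 in DBZ arrays, a difference of 0.05 with a 95% interval of -0.29 to 0.38. No difference was detectable here. Of 5 other ketone body genes 3 were measured, Bdh2, Oxct1 and Acat1, and 0 passed (limma; 0 with an unadjusted p under 0.05), with differences of -0.09, 0.24 and 0.05.

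Thioesterases split acyl coenzyme A back into free acid and coenzyme A, and 2 paralogues of this family fell. Acot2, the mitochondrial form, read 364, 382 and 377 in vehicle and 219, 262 and 232 in DBZ arrays, and fell by 0.63 with an SE of 0.08 (limma, adjusted p = 0.024). Acot1, the cytosolic form, read 116, 176 and 193 against 55.9, 36.5 and 57.6 and fell by 1.42 with an SE of 0.21 (limma, adjusted p = 0.030; 0.0504 with a pseudocount of 64). Neither overlapped between groups. These genes are near-identical copies, so a probe set of one may also bind RNA of the other. Acot3 and Acot4, further members of the family, were at 0.002 and -0.19 (limma, adjusted p = 0.99 and 0.73), and Acot3 was below the array medians.

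**Figure D2:**
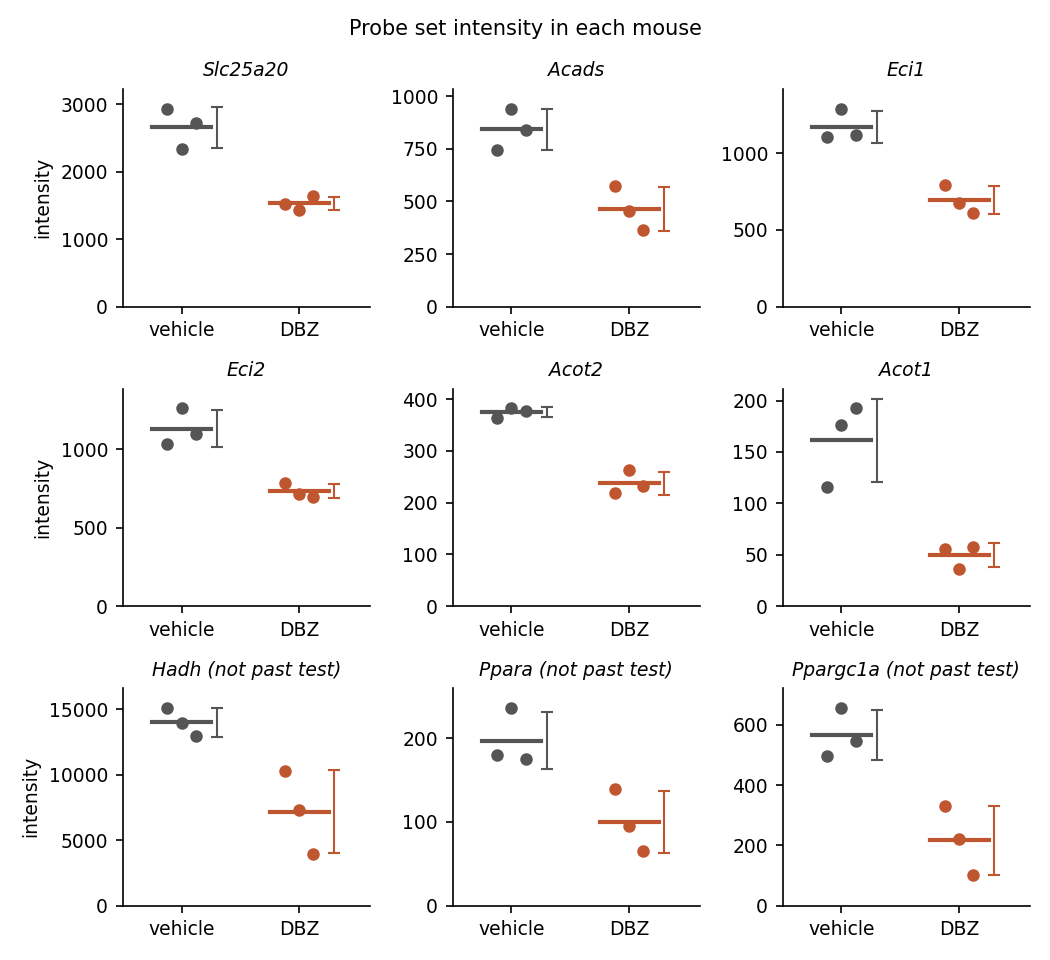
Points show the probe set intensity in each mouse, horizontal bars the group mean and brackets the SD (n = 3), on linear axes that start at 0. The 6 genes that passed the test and Hadh, Ppara and Ppargc1a, which did not, all have DBZ points below the vehicle points, and DBZ replicate 3 is the lowest in the bottom row.

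Peroxisomes run their own cycle. Of the 9 measured peroxisomal genes 0 passed, with 3 lower at an unadjusted p under 0.05 (limma; 11.3% of all genes), and the median was -0.27. Only 5 of the 9 belong to the cycle, and their median was -0.60. The 2 genes of export had a median of -0.09, and the 2 of peroxisome division and peroxide removal -0.53. For the 18 mitochondrial genes 4 passed, 11 were lower at an unadjusted p under 0.05 and the median was -0.60. DBZ lay wholly below vehicle for 9 of the 18 and for 2 of the 9, against 15.8% of all genes. The peroxisomal median moved to -0.45 without DBZ replicate 1, where the mitochondrial one was -0.67, and to -0.44 with the mean of each gene's probe sets, where the mitochondrial one was -0.51. In the wider list described further on the order was the other way, with medians of -0.17 for 38 peroxisomal and -0.06 for 25 mitochondrial genes. That list has no separate class for genes of both compartments, and its classes are not made up like those of the members. Of its 25 mitochondrial genes 3 are ketone body genes, and of its 38 peroxisomal genes 15 serve peroxisome assembly. Some others, such as Dao, are not enzymes of fatty acid oxidation, so these medians do not compare its steps alone. The classes share arrays and their genes were chosen with results known, so the difference between them was not tested.

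Within the peroxisomal cycle, Hsd17b4, the multifunctional enzyme of very long and branched chains, was at -0.78 ± 0.23 (limma, adjusted p = 0.10). It read 918, 1507 and 1133 in vehicle and 781, 759 and 504 in DBZ arrays, with its groups apart in both probe sets. Ehhadh, the multifunctional enzyme of straight chains, was at -0.60 ± 0.27 and overlapped, since DBZ replicate 1 stood at 642, above vehicle replicate 1 at 566. Scp2, a thiolase and sterol carrier gene, was at -0.27 ± 0.21. Its other 3 probe sets were at -0.55, -0.42 and -0.50 with groups apart, so its value depends on the probe set. Decr2, the peroxisomal dienoyl reductase, was at 0.13 with a 95% interval of -0.38 to 0.64.

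Acaa1b, a peroxisomal thiolase, was dim. It read 37.6, 137 and 36.6 in vehicle and 29.1, 20.8 and 40.9 in DBZ arrays, so its difference of -0.73 ± 0.44 rested on vehicle replicate 2, and without that array it was -0.22. Its near-identical copy Acaa1a was at -0.36 ± 0.19 (limma, adjusted p = 0.29).

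Cat, the catalase that breaks down the hydrogen peroxide of peroxisomal oxidation, had the lowest peroxisomal value. It read 1139, 1936 and 1734 in vehicle and 1196, 791 and 686 in DBZ arrays, a difference of -0.84 ± 0.27 (limma, adjusted p = 0.12), and overlapped at replicate 1 of both groups. Its other probe set was at -1.11 with groups apart. Pex11a, which promotes peroxisome division, was at -0.22 ± 0.07, and all DBZ values of 447 to 488 lay below vehicle values of 504 to 560, though its other probe set, at -0.26, overlapped. For export of shortened chains, Acot8 was at -0.21 ± 0.09 and Crot at 0.03 ± 0.13, both with overlap.

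The regulators had low values that did not pass the test. Ppargc1a, which encodes PGC-1alpha, read 495, 656 and 544 in vehicle and 331, 220 and 101 in DBZ arrays, a difference of -1.45 ± 0.38 (limma, adjusted p = 0.080). Its 5 probe sets lay between -1.48 and -1.29, each with the groups apart. Ppara read 180, 236 and 175 against 139, 95.2 and 65.6, a difference of -0.92 ± 0.24 (limma, adjusted p = 0.080), and its 3 probe sets, at -1.32 to -0.92, were also apart. DBZ replicate 3 was lowest for both genes. Without DBZ replicate 1 both passed (limma, adjusted p = 0.027 and 0.024), but without each other array in turn neither did, with an adjusted p of up to 0.19 for both.

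Pdk4, a kinase that restrains pyruvate oxidation and a PPAR target, read 87.7, 278 and 147 in vehicle and 58.5, 45.1 and 112 in DBZ arrays. Its groups overlapped, and the difference of -1.03 ± 0.44 did not pass (limma, adjusted p = 0.20). Acsl5, which joins fatty acids to coenzyme A, was the highest of all 35 at 0.28, with a 95% interval of -0.05 to 0.60. It read 7663, 6228 and 7031 against 9317, 9066 and 7048.

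**Figure D3:**
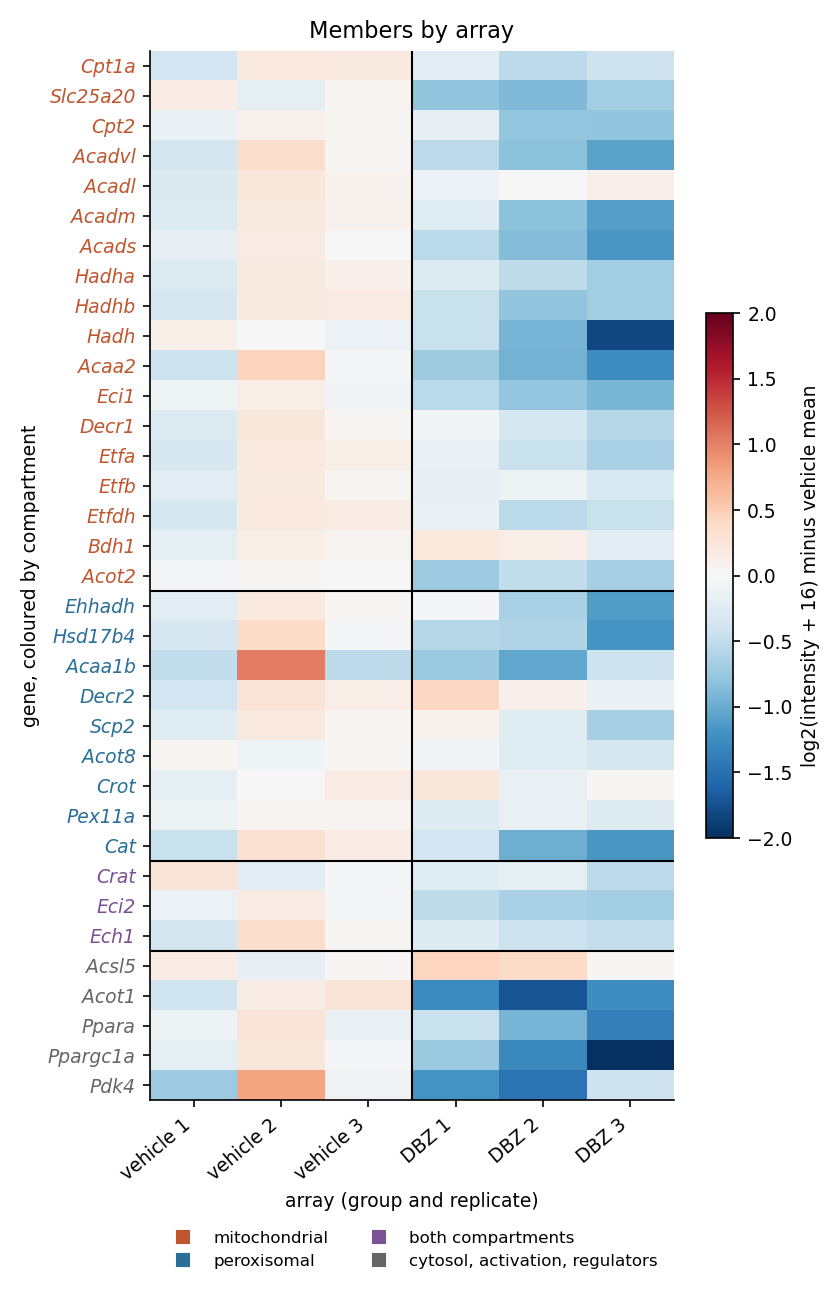
Colours give each gene's log2(intensity + 16) minus its vehicle mean in each of the 6 arrays, with genes ordered by compartment. Vehicle replicate 1 is the bluest of the vehicle columns and DBZ replicate 3 holds the deepest blues, for Hadh and Ppargc1a.

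Arrays of 1 group differed from each other along these genes. Vehicle replicate 1 was the lowest vehicle array for 28 of the 35 genes, against 38.7% of all genes, and vehicle replicate 2 the highest for 27, against 34.4%. Among DBZ arrays replicate 3 was lowest for 24 and replicate 1 highest for 26. The median of the 18 mitochondrial genes, taken against the vehicle mean, was -0.27, 0.18 and 0.05 in vehicle replicates 1 to 3 and -0.25, -0.65 and -0.69 in DBZ replicates 1 to 3. Vehicle replicate 1 and DBZ replicate 1 thus stood at nearly the same level, and the other arrays separated the groups. For the 9 peroxisomal genes the medians were -0.24, 0.20 and 0.04 against -0.05, -0.24 and -0.41, with overlap.

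Vehicle replicate 1 also had the highest actin ratio, at 2.22. Without it the median of the 35 genes was -0.65.

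Probe sets of 1 gene mostly gave the same direction. Of 19 genes with several probe sets 17 had all of them on the same side of 0, and the exceptions were Crat and Crot. Of all 65 probe sets 59 were below 0, 38 had DBZ wholly below vehicle and 0 had it wholly above. Genes with several probe sets count more than once here, and the shares over all probe sets of the array were not computed.

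A wider list gave the other genes of these pathways. Of 91 measured from 102 listed, 7 fell and 1 rose, where 1.52% of all genes were called lower and 3.82% higher, and the median was -0.13. Hao2, a peroxisomal oxidase of long-chain hydroxy acids, had the largest fall, from 307, 477 and 425 in vehicle to 35.2, 41.4 and 33.0 in DBZ arrays. It fell by 2.98 with an SE of 0.16 (limma, adjusted p = 0.0041) and passed without each array in turn. Acsm3, a mitochondrial medium-chain acyl coenzyme A synthetase, read 176, 303 and 193 against 26.5, 39.1 and 60.4 and fell by 2.05 with an SE of 0.27 (limma, adjusted p = 0.026).

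The remaining falls were smaller. Mgst1, a glutathione transferase of the endoplasmic reticulum, mitochondria and peroxisomes, fell by 0.81, Pxmp2, a channel of the peroxisomal membrane, by 0.78, and Ppargc1b, which encodes the coactivator PGC-1beta, by 0.68. Dao, which oxidises D-amino acids, and Nudt19, a peroxisomal coenzyme A hydrolase, both fell by 0.45 (limma, adjusted p = 0.031 to 0.047 for the 5). Acsl6, an acyl coenzyme A synthetase, rose by 0.40 with an SE of 0.06, at intensities of 19.1 to 21.7 with vehicle against 31.4 to 32.7 with DBZ, below the array medians. By group 5 of 38 peroxisomal, 1 of 25 mitochondrial and 1 of 28 remaining genes fell, with Mgst1 counted as peroxisomal. Without vehicle replicates 1, 2 or 3 or DBZ replicate 2 only 1 of the 91 was lower, without DBZ replicate 3 there were 2, and without DBZ replicate 1 there were 15.

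**Figure D4:**
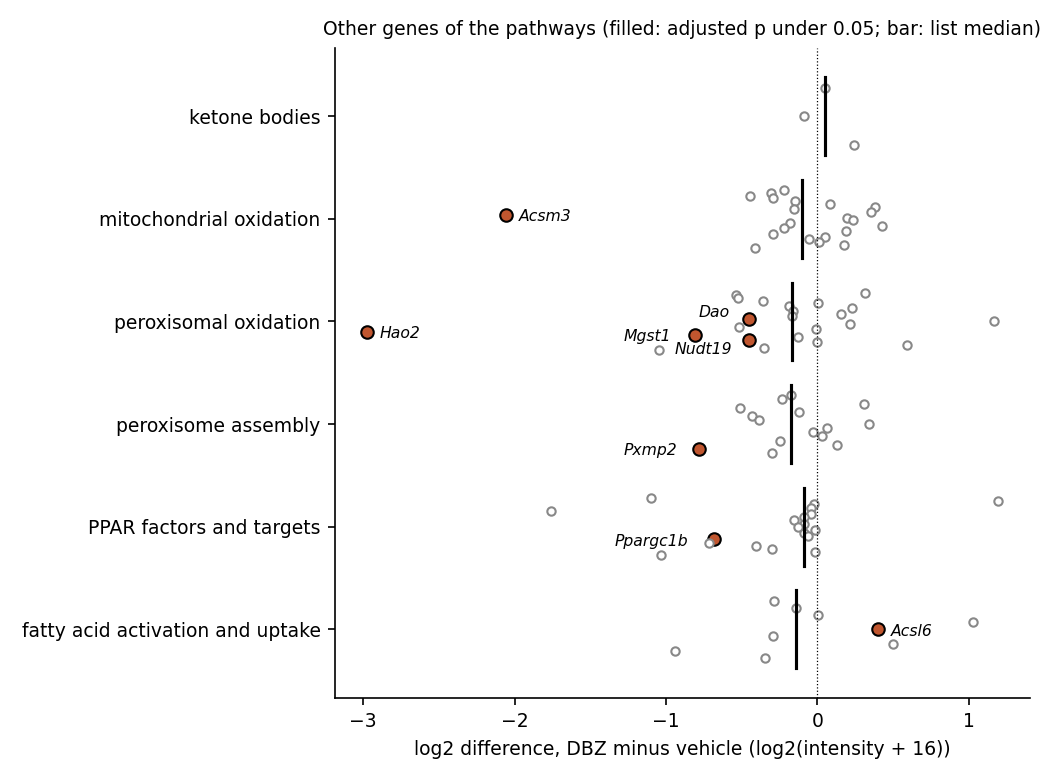
Each point is a gene of the wider pathway list, placed by its difference, DBZ minus vehicle, in log2(intensity + 16), and black bars are list medians. The 8 filled and named genes passed the test, with Hao2 at -2.98 and Acsm3 at -2.05 farthest from 0 and Acsl6 the filled point above 0.

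Marker genes of other cell types differed between the same arrays. Each array measured all sorted cells together, so fewer cells of a type and less RNA per cell cannot be told apart. Enterocyte genes, which mark the absorptive cells that also oxidise fat, had sums over 6 of 7 listed between 41597 and 45412 in the vehicle group and between 33006 and 40614 in the DBZ group, lower without overlap. Of the 6 genes 0 passed the test (limma), and 3 had an unadjusted p under 0.05. All 6 lay below 0, but 4 overlapped between groups. Most of the sum was Apoa1 and Vil1, both with overlap, at -0.19 and -0.14. The 2 with groups apart were Lct, dim at 12.5 to 23.1, and Fabp1. Fabp1 read 1133 in vehicle replicate 2 against 192 and 216 in vehicle replicates 1 and 3. Stem cell genes, 4 of 4, had sums of 4442 to 6234 against 804 to 1109, and most of the vehicle sum was Olfm4. Olfm4 and Ascl2 fell (limma, adjusted p = 0.00042 and 0.025), while Lgr5 and Smoc2, at -0.08 and 0.14, overlapped between groups. Goblet genes, 5 of 5, had sums of 62846 to 69674 against 78349 to 94943, and enteroendocrine genes, 4 of 4, of 1728 to 2179 against 3278 to 7821.

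Several cell types outside the epithelium had higher sums. Fibroblast and smooth muscle genes, 6 of 6, had sums between 14282 and 20297 in the vehicle group and between 29254 and 35018 in the DBZ group, and 3 of them rose (limma). Adipocyte genes, 4 of 6, summed to 1338 to 2911 and 4893 to 11705, and 2 rose. Neutrophil genes, 2 of 2, summed to 34.8 to 42.4 and 567 to 5277, and both rose. T cell sums overlapped between groups. Macrophage sums did too, but they were mostly Csf1r, and the other 2 of 3 macrophage genes, Cd68 and Adgre1, were higher in every DBZ array, at 0.97 and 0.76 (limma, adjusted p = 0.12 and 0.097). No array listed any of these markers at 0, but a low value does not show that a transcript was present. Lep of adipocytes stayed at 16.6 to 20.9, near the dimmest values, in all arrays. In vehicle arrays the neutrophil genes S100a8, at 16.85 to 23.98, and S100a9, at 17.83 to 23.63, were similarly low. The part of these shifts in the lower oxidation genes was not tested. With each array centred on the mean of Epcam, Cdh1 and Krt8, an alternative chosen after the data were seen, the median of the 35 was -0.59. In that fit 8 of them fell, where 360 of all 18193 genes were lower. These 3 genes differed little between groups, at 0.03, 0.008 and -0.08, so the centring could move the values only little. It is not a test of the part of other cell types.

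**Figure D5:**
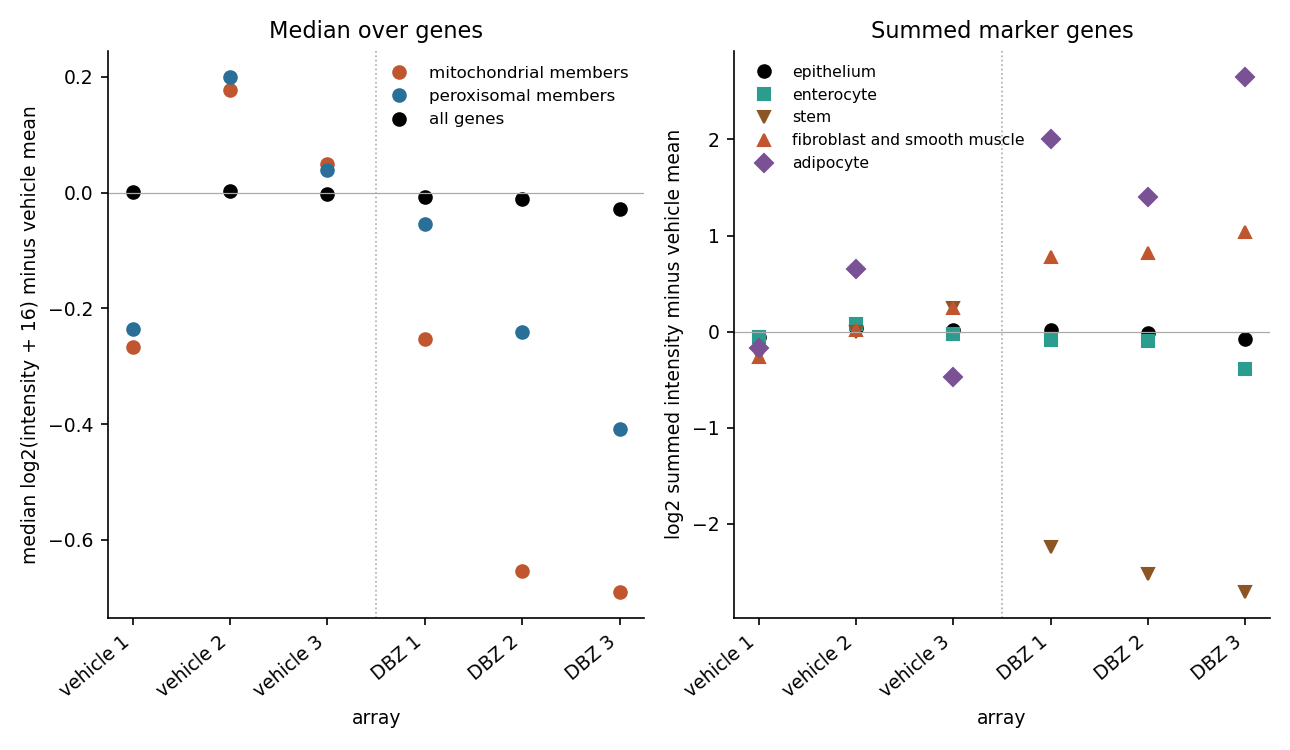
Left, the median difference from the vehicle mean, in log2(intensity + 16), of mitochondrial and peroxisomal members and of all genes in each array. Right, log2 of summed marker intensities minus the vehicle mean. Epithelial sums stay near 0, while adipocyte and fibroblast sums are higher in every DBZ array. Stem cell sums are lower in every DBZ array, and most of their vehicle sum is Olfm4.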

How the data were processed

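Sorted cells of 3 vehicle and 3 DBZ mice gave RNA that an Affymetrix in vitro transcription kit amplified from the 3' end, per the labels. The authors deposited 1 intensity per probe set and array, linear and already level between arrays. How background was corrected and arrays normalized is not given in the sources used here. Array medians differed by 0.03 on the log2 scale, so nothing was normalized again.

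Of 45101 probe sets, 64 were controls. A single gene symbol stood beside 34945, several beside 932 and none beside 9160, and only the first were used. The brightest probe set on average represented each of 18193 genes. log2(intensity + 16) was compared with limma 3.58.1 in R 4.3.3 (lmFit, eBayes, two-sided). The p-values of all genes were adjusted together (Benjamini-Hochberg), and a gene passed under 0.05. The labels call the mice biological replicates. The number of arrays limits the precision, and an exact permutation test of 3 against 3 cannot go below 0.1. SE is limma's moderated standard error and SD has n = 3.

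The members and lists were chosen with earlier results of these data known, so no list was tested as a set. All members may be named. Of the wider pathway list, genes past the threshold are named, up to 12, together with near copies of members. Mut of that list was matched as Mmut. Ketone body genes, and the genes given in the closing section outside this rule, were named after their values were seen. Alternatives covered scaling, pseudocount, a filter on dim genes, probe set choice, variance model, weighting of arrays, a block for the replicate number, the threshold and leaving out each array. Promoters come from RefSeq, GRCm38.p6.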

Additional observations from a re-analysis of the deposited data

How the results depend on the processing

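All 6 genes that fell kept their sign in every alternative that tested them, and the median of the 35 stayed below 0. Of the 35, 6 were called lower as reported. With only genes above the median level tested, which kept 32 of the 35, the count was 10. It was 20 with array weights, 11 at an adjusted p under 0.1 and 0 to 13 when 1 array was left out. Over all genes tested, those called lower were 277 as reported, 380 with only genes above the median level and 1030 with array weights. Leaving out 1 array gave 3 to 727, and at an adjusted p under 0.1 the lower genes were not counted apart. For the 18 mitochondrial genes, 4 as reported, the same settings gave 7, 13, 7 and 0 to 7. For the 9 peroxisomal genes, 0 as reported, array weights gave 3 and leaving out 1 array 0 to 2. Over all genes, 972 as reported, a pseudocount of 64 gave 440, array weights 2690, an adjusted p under 0.1 gave 2575 and leaving out 1 array 19 to 2032. Among the other pathway genes, 7 lower and 1 higher as reported, array weights gave 19 lower and 5 higher, an adjusted p under 0.1 gave 17 and 4, and leaving out 1 array 1 to 15 and 0 to 5. The count of these that were higher was also 3 with a pseudocount of 1, with a trended robust prior and with centring on epithelial genes, 2 with only genes above the median level and without _x_at and _s_at probe sets, and 0 with the mean of a gene's probe sets. The cause of the changes with array weights was not tested.

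Genes near 0 changed sign. Crot was at -0.021 after quantile normalization, -0.0070 after centring on array medians, -0.075 as the mean of its probe sets, -0.14 with array weights and -0.065 to 0.13 when 1 array was left out. Acadl was at 0.013 with centring on epithelial genes, and when 1 array was left out Acadl ran from -0.15 to 0.11, Bdh1 from -0.038 to 0.18 and Decr2 from -0.068 to 0.26.

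Replicate numbers recur in both groups, but the labels do not say that they pair the mice. Deviations of same-numbered arrays correlated at -0.0086, 0.25 and 0.20 across genes for numbers 1, 2 and 3, and number 1 did not match best. With the replicate block 4 of the 35 genes were lower, without Acads and Eci2 (limma, adjusted p = 0.072 and 0.054), 889 genes were called in all, and 3 of the other pathway genes were lower.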

Other observations

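Of the 91 genes of the wider list 11 had higher values in every DBZ array, against 17.3% of all genes. Lower values in every DBZ array were found for 23, against 15.8% of all genes. Of the 11 Acsl6 alone passed the test, and 3 others are named here after their values were seen. Cd36, a fatty acid transporter of the cell surface, read 126, 237 and 216 in vehicle replicates 1 to 3 and 381, 262 and 891 in DBZ replicates 1 to 3, a difference of 1.19 ± 0.46 (SE; limma, adjusted p = 0.17). Acsl4, an acyl coenzyme A synthetase that prefers arachidonic acid, read 84.3, 119 and 109 against 196, 185 and 323, a difference of 1.03 ± 0.22 (limma, adjusted p = 0.054). Far1, the reductase that supplies fatty alcohol for ether lipids, read 167, 182 and 186 against 296, 397 and 631, a difference of 1.17 ± 0.25 (limma, adjusted p = 0.054). For all 3 genes DBZ replicate 3 was the highest array. The adipocyte gene Adipoq read 252, 480 and 133 in vehicle and 1451, 1170 and 3256 in DBZ arrays, also highest in DBZ replicate 3. It rose by 2.72 (limma, adjusted p = 0.047, 0.023 to 0.13 over the alternatives), and its part in these values was not tested. A peak in DBZ replicate 3 is not particular to adipocyte genes. The sums of fibroblast and smooth muscle, neutrophil and goblet genes were highest there too, while the enteroendocrine sum was highest in DBZ replicate 2. DBZ replicate 3 was the highest DBZ array for 32.4% of all genes.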
